A study of Mus musculus with 6 samples.

Results

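The transcripts described here are those of 40 genes that drive or mark the cell division cycle and DNA replication, read in whole mouse lung after naphthalene. The genes are a list chosen by function, and each was represented by its brightest probe set among those annotated to that single gene symbol. By this rule 37 of the 40 genes were read, out of 16537 genes tested in all, and each of the 37 had 1 such probe set. Ccnb1 and Birc5 had none, and Ccne2 lay only in a probe set shared with another symbol, so the levels of these 3 genes were not analysed here. The arrays were read one by one, because the spread among the arrays labelled Falcor-null was part of the question.

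A cell that divides passes through a gap phase (G1), DNA synthesis (S), a further gap (G2) and mitosis (M). Cyclins switch on cyclin-dependent kinases in turn, CDK inhibitors hold these kinases in check, and E2F factors turn on the genes for DNA synthesis. Transcripts of the mitotic genes accumulate late in the cycle and are nearly absent from resting cells. Adult lung divides little at rest, and after naphthalene has removed club cells of the conducting airway, surviving epithelial cells divide to restore it.

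The 6 arrays came from 3 samples labelled Falcor-null and 3 wild-type samples. Falcor is a long non-coding RNA gene beside the forkhead factor gene Foxa2, and Falcor-null denotes its loss. All samples were whole lung of the mixed strain CD1_C57Bl6_mix, and all had received naphthalene, so that no group without injury was read. The labelled days after naphthalene were 31, 32 and 33 for replicates 1, 2 and 3 labelled Falcor-null and 28, 29 and 30 for wild-type replicates 1, 2 and 3. Genotype and labelled day therefore cannot be told apart, and whether these are true days is not known here. The labels do not state the age or sex of the mice, or whether the samples came from separate animals, so that p-values measure only the spread between these samples. Values are the authors' log2 signals, for which the submitters' processing notes list robust multi-array averaging (RMA), and in which a difference of 1 is a factor of 2, and no detection calls were used. A value below is a level on this scale unless it is called a difference.

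The targeted gene did not behave as its label reads. The Falcor probe set (symbol 9030622O22Rik) gave 6.82, 6.34 and 6.32 on the arrays labelled Falcor-null, against 4.69, 5.01 and 5.45 on the wild-type arrays. This was higher in 3 of 3 by a log2 difference of 1.44 (limma adjusted p = 0.0423), and where the probe set lies relative to the deleted part is not known here. Foxa2 differed by 0.27 (adjusted p = 0.175). The call of the Falcor probe set held without wild-type replicate 3 and was lost without any other single array (adjusted p between 0.0704 and 0.143). Every direction given here rests on the labels. Over all genes, 92 of 16537 (0.556%) passed at an adjusted p under 0.05 in limma, 76 of them lower (0.460%) on the arrays labelled Falcor-null. The array medians lay between 6.69 and 6.70 on those arrays and between 6.72 and 6.74 on the wild-type arrays.

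None of the 37 cell cycle genes differed between the groups at an adjusted p under 0.05 in limma, against 0.556% of all genes. The smallest adjusted p was 0.280, for the CDK inhibitor gene Cdkn1b. At an unadjusted p under 0.05 there were 2 genes, Cdkn1b and Cdkn2c, where 13.8% of all genes passed. The groups did not overlap in 2 of the 37, E2f1 and Cdkn1b, against 19.5% of all genes. The median log2 difference of the 37 was 0.07, beside 0.003 over all genes, with 25 genes higher and 12 lower.

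What set the arrays apart was replicate 2 labelled Falcor-null. It gave the highest of the 6 values in 31 of the 37 genes, against 18% of all genes. Replicate 3 labelled Falcor-null lay at the opposite end, the lowest of the 6 in 22 genes (19.7% of all genes). Replicate 1 was the lowest in 6 (16.3% of all genes), a share near that of all genes. Averaged over the 37 genes, the level minus the wild-type mean was -0.11, 0.57 and -0.25 on replicates 1, 2 and 3 labelled Falcor-null, against -0.10, 0.13 and -0.03 on the wild-type arrays. Over all genes tested the same averages ran from -0.03 to 0.01. Without replicate 2 labelled Falcor-null, 30 of the 37 genes were lower and 7 higher, with a median difference of -0.18, so the direction of the group comparison rested on this array. It rested on 1 control array as well, since without wild-type replicate 1 the median was -0.01, with 19 genes lower and 18 higher.

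**Figure D1:**
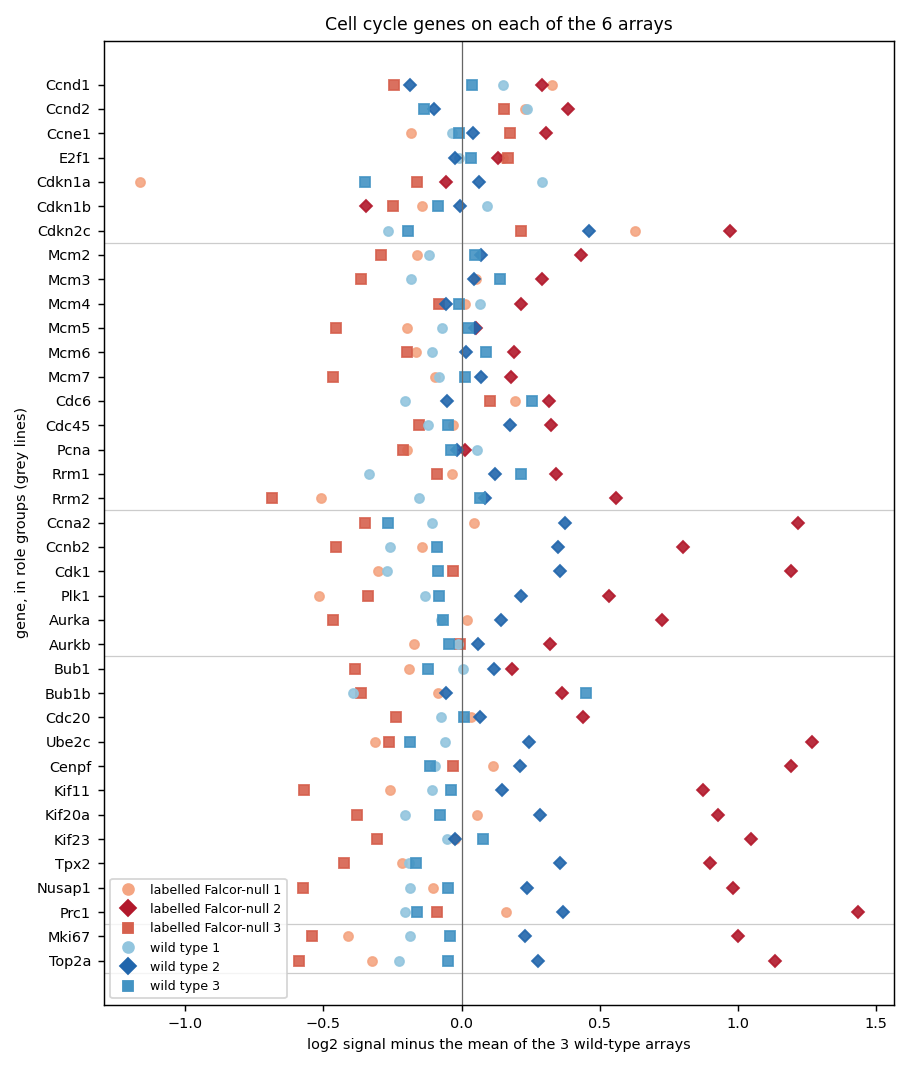
Each row is 1 of the 37 cell cycle genes, in its role group, and each point is 1 array, as log2 signal minus the mean of the 3 wild-type arrays. Replicate 2 labelled Falcor-null (dark red diamonds) is the highest of the 6 arrays in 31 genes, and replicate 3 labelled Falcor-null (red squares) is the lowest in 22.

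Mki67, which encodes the Ki-67 protein found in dividing and not in resting cells, and Top2a, the topoisomerase that untangles DNA before chromosomes separate, both showed the pattern. Mki67 (probe set 17497334) gave 7.69, 9.10 and 7.56 on the arrays labelled Falcor-null, against 7.91, 8.33 and 8.05 on the wild-type arrays. Top2a (probe set 17268909) gave 6.31, 7.77 and 6.05 on the arrays labelled Falcor-null, against 6.41, 6.92 and 6.59 on the wild-type arrays. In both genes replicate 2 labelled Falcor-null stood above every wild-type array, and replicates 1 and 3 stood below every wild-type array. Replicate 2 was 2.78-fold (Mki67) and 3.01-fold (Top2a) above the mean of the other Falcor-null arrays on the log2 scale. The group means of Mki67 nevertheless almost coincided, at 8.11 ± 0.85 on the arrays labelled Falcor-null and 8.10 ± 0.21 on the wild-type arrays (SD, n = 3 each), a log2 difference of 0.02 (SE 0.38, limma adjusted p = 0.991). The 95% interval of that difference ran from -0.87 to 0.90, so changes of nearly 2-fold in either direction are not distinguished here.

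Among the cyclins and kinases of G2 and mitosis, all 6 genes read were highest on replicate 2 labelled Falcor-null. Ccna2, the A-type cyclin of S phase and G2, gave 6.66, 7.83 and 6.26 on the arrays labelled Falcor-null, against 6.51, 6.98 and 6.35 on the wild-type arrays. Cdk1, the kinase that drives entry into mitosis, gave 5.68, 7.18 and 5.96 on the arrays labelled Falcor-null, against 5.72, 6.34 and 5.90 on the wild-type arrays. Ccnb2, a B-type cyclin partner of Cdk1, gave 6.89, 7.83 and 6.57 on the arrays labelled Falcor-null, against 6.77, 7.38 and 6.94 on the wild-type arrays. In each of these 3 genes replicate 2 labelled Falcor-null was above all wild-type arrays, while replicates 1 and 3 lay within the wild-type range or below it. Plk1, the polo kinase of spindle assembly and mitotic exit, was 1.94-fold higher on replicate 2 than the mean of replicates 1 and 3, and Aurka, the spindle pole kinase, 1.93-fold. Aurkb, the kinase of the chromosomal passenger complex, differed least, at 5.84, 6.33 and 6.01 on the arrays labelled Falcor-null, against 5.998, 6.07 and 5.97 on the wild-type arrays. The log2 differences between the groups in these 6 genes ran from -0.11 (Plk1) to 0.30 (Ccna2), with adjusted p-values between 0.784 and 0.953.

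The genes of the spindle, kinetochore, anaphase and cytokinesis had the same high array, with replicate 2 labelled Falcor-null highest of the 6 in 10 of 11. Ube2c, the ubiquitin-conjugating enzyme of the anaphase-promoting complex, gave 5.60, 7.18 and 5.65 on the arrays labelled Falcor-null, against 5.85, 6.16 and 5.73 on the wild-type arrays. Prc1, which bundles microtubules of the central spindle, gave 6.46, 7.74 and 6.21 on the arrays labelled Falcor-null, against 6.10, 6.67 and 6.14 on the wild-type arrays. These were the genes of this role with the largest excess of replicate 2 over the mean of replicates 1 and 3, at 2.94-fold and 2.64-fold. The excess was 2.50-fold in Nusap1 and 2.33-fold in Tpx2, both microtubule-associated factors of the spindle. For the mitotic kinesins it was 2.44-fold in Kif11, which pushes spindle poles apart, and 2.32-fold in Kif23 and 2.13-fold in Kif20a, which act in cytokinesis. Cenpf, a kinetochore and matrix protein of G2 and mitosis, was 2.22-fold higher on that array.

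The spindle checkpoint genes differed less between these arrays. Bub1 gave 5.34, 5.71 and 5.14 on the arrays labelled Falcor-null, against 5.53, 5.64 and 5.41 on the wild-type arrays. Bub1b was the exception, at 5.72, 6.17 and 5.44 on the arrays labelled Falcor-null, against 5.41, 5.75 and 6.26 on the wild-type arrays. There wild-type replicate 3 was highest. Cdc20, the activator of the anaphase-promoting complex that the checkpoint restrains, was 1.46-fold higher on replicate 2 than the mean of replicates 1 and 3. Group differences over these 11 genes ran from -0.13 (Bub1) to 0.50 (Prc1), with adjusted p-values from 0.586 to 0.991.

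**Figure D2:**
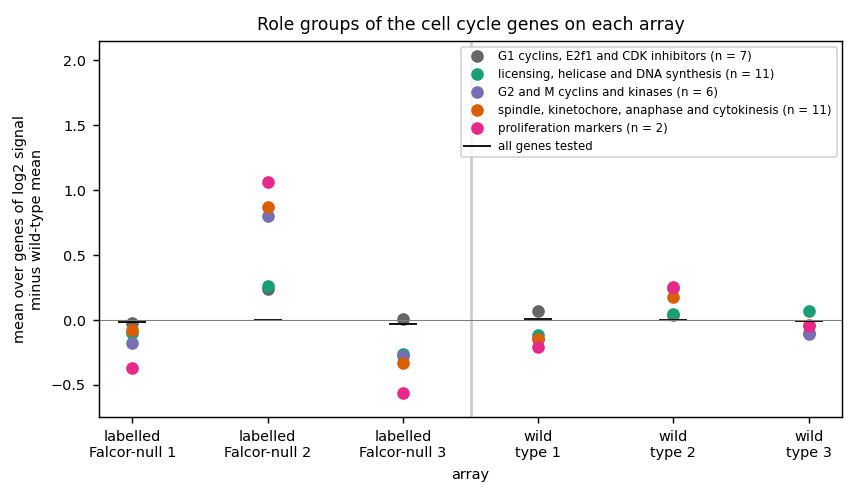
Mean over the genes of each role group of log2 signal minus the wild-type mean, on each of the 6 arrays, with all 16537 genes as black bars. On replicate 2 labelled Falcor-null the groups of mitosis and the proliferation markers stand at 0.80 to 1.07 and the G1 and DNA synthesis groups at 0.24 and 0.26, while all genes stay near 0.

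Because most of these genes were highest on the same array, promoters are shown. The lowest array differed between them. Genes of G2 and mitosis are known to carry a cell cycle homology region (CHR, TTTGAA) near a CCAAT box (CCAAT), through which repressor and activator complexes restrict them to dividing cells. Promoter windows of 250 bases before to 50 after the start were taken from RefSeq (build GRCm38.p6) and held 32 of the 40 genes, among them Ccnb1 and Birc5, whose levels were not read. Of 17 genes of mitosis and proliferation markers with a window, Ccnb1 and Birc5 included, 13 held TTTGAA on either strand. The share was 20.2% of all 27025 genes in that table. Ccnb1, Birc5, Bub1 and Nusap1 did not hold it. The CCAAT letters were in 15 of the 17, against 41.1% of all genes. Below, capitals mark these letters on either strand, and lines run 5′ to 3′ along the gene's strand. The genes shown were picked for their excess (Ube2c, Top2a) or as examples of known cell cycle promoters (Plk1, Ccnb2, Cdc20). All of them hold both motifs, so they do not stand for the genes without TTTGAA. The plan had named Ccnb1 and Ccne1, and had not named Ube2c and Top2a. The windows of Ccnb1 and Ccne1 hold no TTTGAA and are not shown.
Ube2c, chr2:164769679-164769978, plus strand: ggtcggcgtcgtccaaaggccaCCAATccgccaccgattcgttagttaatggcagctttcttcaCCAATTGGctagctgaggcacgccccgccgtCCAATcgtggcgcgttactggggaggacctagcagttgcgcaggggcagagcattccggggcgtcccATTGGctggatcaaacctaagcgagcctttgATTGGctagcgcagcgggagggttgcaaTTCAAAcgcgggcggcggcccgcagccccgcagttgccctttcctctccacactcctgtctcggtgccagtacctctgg
Top2a, chr11:99024140-99024439, minus strand: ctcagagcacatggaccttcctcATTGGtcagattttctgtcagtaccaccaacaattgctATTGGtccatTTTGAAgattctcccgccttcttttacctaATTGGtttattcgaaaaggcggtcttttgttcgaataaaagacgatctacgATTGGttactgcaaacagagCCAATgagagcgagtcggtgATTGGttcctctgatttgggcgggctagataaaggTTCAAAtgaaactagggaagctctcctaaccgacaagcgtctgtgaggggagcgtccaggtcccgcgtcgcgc
Plk1, chr7:122159185-122159484, plus strand: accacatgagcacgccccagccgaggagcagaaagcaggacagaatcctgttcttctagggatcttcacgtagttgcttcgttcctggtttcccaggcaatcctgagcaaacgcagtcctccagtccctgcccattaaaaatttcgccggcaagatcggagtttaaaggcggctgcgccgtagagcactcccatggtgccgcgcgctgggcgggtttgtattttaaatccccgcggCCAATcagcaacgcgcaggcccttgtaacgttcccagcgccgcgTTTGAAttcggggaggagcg
Ccnb2, chr9:70421505-70421804, minus strand: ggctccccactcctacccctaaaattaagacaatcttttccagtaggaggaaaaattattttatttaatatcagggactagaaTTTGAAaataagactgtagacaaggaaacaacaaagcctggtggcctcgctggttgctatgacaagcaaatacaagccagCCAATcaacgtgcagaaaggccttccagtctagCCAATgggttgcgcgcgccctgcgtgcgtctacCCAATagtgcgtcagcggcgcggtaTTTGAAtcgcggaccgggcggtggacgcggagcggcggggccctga
Cdc20, chr4:118437294-118437593, minus strand: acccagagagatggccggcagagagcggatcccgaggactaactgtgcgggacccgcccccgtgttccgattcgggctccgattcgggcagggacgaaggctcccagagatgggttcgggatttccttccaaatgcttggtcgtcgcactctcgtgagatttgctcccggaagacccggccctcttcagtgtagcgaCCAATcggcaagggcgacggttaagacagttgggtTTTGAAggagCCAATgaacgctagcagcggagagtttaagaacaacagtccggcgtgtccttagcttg
The TTTGAA nearest the start began 29 bases before it in Ube2c and 23 bases before it in Top2a, both on the opposite strand, and on the gene's own strand 18 bases before it in Cdc20, 4 bases after it in Ccnb2 and 30 bases after it in Plk1. The letters are a description of these windows and do not show that a factor bound there.

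The letters were also counted by the arrays' values. On replicate 2, 17 genes lay over 0.5 above both other arrays labelled Falcor-null, where 0.968% of all genes did. Of the 14 of these with a window, 12 held TTTGAA. Of the 16 other genes read that had a window, 3 did (Bub1b, Cdc20 and Cdc45). This split used the arrays' values and was not tested, and the genes that share the motif also share their role.

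Genes of replication licensing and DNA synthesis mostly had the same high array, with smaller steps. Replicate 2 labelled Falcor-null was the highest of the 6 arrays in 10 of 11, and replicate 3 the lowest in 9. The Mcm genes encode the 6 subunits of the helicase that is loaded at origins in G1. Mcm2 gave 6.67, 7.26 and 6.54 on the arrays labelled Falcor-null, against 6.71, 6.90 and 6.88 on the wild-type arrays. Mcm5 gave 6.23, 6.48 and 5.97 on the arrays labelled Falcor-null, against 6.35, 6.48 and 6.45 on the wild-type arrays. In Mcm5 the highest Falcor-null value therefore only equalled the highest wild-type value, and replicates 1 and 3 lay below all wild-type arrays. Over Mcm2, Mcm3, Mcm4, Mcm5, Mcm6 and Mcm7 the excess of replicate 2 over the mean of replicates 1 and 3 ran from 1.19-fold (Mcm4) to 1.58-fold (Mcm2).

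Rrm2, the cell cycle regulated subunit of the ribonucleotide reductase that makes deoxynucleotides, differed more between arrays than any other gene of this role. It gave 5.14, 6.21 and 4.96 on the arrays labelled Falcor-null, against 5.49, 5.73 and 5.72 on the wild-type arrays. Its partner Rrm1 gave 7.996, 8.37 and 7.94 on the arrays labelled Falcor-null, against 7.70, 8.15 and 8.24 on the wild-type arrays. Replicate 2 stood 2.23-fold above the mean of replicates 1 and 3 in Rrm2 and 1.32-fold in Rrm1, and with replicate 2 the Rrm2 arrays labelled Falcor-null surrounded the wild-type range.

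Cdc6, a loader of the helicase, gave 5.02, 5.14 and 4.93 on the arrays labelled Falcor-null, against 4.62, 4.77 and 5.08 on the wild-type arrays. Cdc45, which turns the loaded helicase on, was 1.33-fold higher on replicate 2 than the mean of the other Falcor-null arrays. Pcna, the sliding clamp of the DNA polymerases, was flattest, at 8.54, 8.75 and 8.53 on the arrays labelled Falcor-null, against 8.80, 8.73 and 8.70 on the wild-type arrays. It was the only gene of this role in which replicate 2 was not the highest of the 6 arrays. Group differences ran from -0.21 (Rrm2) to 0.20 (Cdc6), with adjusted p-values from 0.538 to 0.992.

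Promoters of DNA synthesis genes are known for E2F sites. The form TTCCCGC, the form TTGGCGC, the form TTCGCGC and the form TTGCCGC were searched on both strands. In Mcm5 and Mcm6 below, copies of the second and the third form overlap on opposite strands. At least 1 of them was in 7 of the 10 genes of this role with a window, against 10.9% of all genes, and in 3 of the 17 genes of mitosis and proliferation markers. TTTGAA was in 2 of the 10. The windows of 2 helicase genes are shown as examples of E2F forms, with these and CCAAT letters in capitals.
Mcm5, chr8:75109259-75109558, plus strand: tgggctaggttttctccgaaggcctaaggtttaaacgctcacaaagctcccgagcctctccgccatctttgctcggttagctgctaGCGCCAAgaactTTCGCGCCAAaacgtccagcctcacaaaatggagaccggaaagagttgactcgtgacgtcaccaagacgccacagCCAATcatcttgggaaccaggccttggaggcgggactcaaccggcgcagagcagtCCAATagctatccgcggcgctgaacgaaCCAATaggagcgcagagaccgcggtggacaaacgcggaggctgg
Mcm6, chr1:128359656-128359955, minus strand: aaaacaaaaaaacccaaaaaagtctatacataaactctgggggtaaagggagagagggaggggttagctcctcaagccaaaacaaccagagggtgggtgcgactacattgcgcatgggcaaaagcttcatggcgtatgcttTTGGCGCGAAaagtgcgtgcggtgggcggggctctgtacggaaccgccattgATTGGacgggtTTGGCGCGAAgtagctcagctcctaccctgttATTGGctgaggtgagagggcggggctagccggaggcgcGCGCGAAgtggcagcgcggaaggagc
Both windows held several E2F forms and no TTTGAA. Mcm5 and Mcm6 had excesses of 1.30-fold and 1.29-fold on replicate 2 labelled Falcor-null. Rrm2 also held an E2F form and no TTTGAA, and its excess was 2.23-fold. In Cdc45 and Mcm2, the genes of this role with TTTGAA, the excess was 1.33-fold and 1.58-fold. A link between these letters and the excess was not tested.

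**Figure D3:**
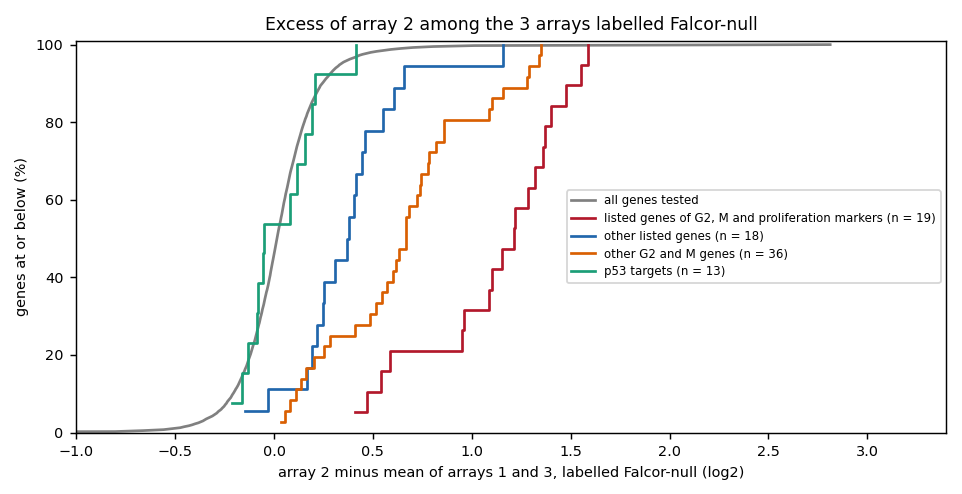
Cumulative share of genes (%) by the log2 difference between replicate 2 and the mean of replicates 1 and 3 labelled Falcor-null. The curve of the 19 listed genes of G2, mitosis and proliferation markers starts at 0.41 and reaches 1.59, with a median of 1.21, and all genes have a median of 0.01.

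The G1 genes varied in their order. Replicate 2 labelled Falcor-null was the highest of the 6 arrays in 3 of 7 (Ccnd2, Ccne1 and Cdkn2c), and replicate 3 the lowest in 1 (Ccnd1). Ccnd1 and Ccnd2 encode D-type cyclins, which carry growth signals to the cycle. Ccnd1 gave 9.76, 9.73 and 9.19 on the arrays labelled Falcor-null, against 9.59, 9.25 and 9.47 on the wild-type arrays. Ccnd2 gave 9.89, 10.05 and 9.82 on the arrays labelled Falcor-null, against 9.90, 9.57 and 9.53 on the wild-type arrays, a log2 difference of 0.26 (adjusted p = 0.409). All 3 wild-type arrays lay inside the Falcor-null range in Ccnd1, and wild-type replicate 1 did in Ccnd2. Ccne1, a cyclin of the step into S phase, gave 5.36, 5.85 and 5.72 on the arrays labelled Falcor-null, against 5.51, 5.58 and 5.53 on the wild-type arrays, so that its groups overlapped.

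E2f1, an E2F activator of S phase genes, had the smallest SD of the 37 genes among the arrays labelled Falcor-null, at 0.02. It gave 6.54, 6.52 and 6.56 on the arrays labelled Falcor-null, against 6.39, 6.37 and 6.43 on the wild-type arrays. The groups did not overlap, and the log2 difference of 0.15 (SE 0.07) had an adjusted p of 0.399. Replicate 2, which was high for the mitotic genes, was the lowest of the 3 Falcor-null arrays for E2f1.

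The CDK inhibitor genes went separate ways. Cdkn1b, which encodes p27 and holds resting cells in G1, gave 8.52, 8.32 and 8.42 on the arrays labelled Falcor-null, against 8.76, 8.66 and 8.58 on the wild-type arrays. It was lower in 3 of 3 by a log2 difference of -0.25 (SE 0.09, 95% interval -0.45 to -0.04), with an adjusted p of 0.280, and it was the only gene of the 37 in which replicate 2 labelled Falcor-null was the lowest of the 6 arrays. Cdkn2c, which encodes p18 and binds the kinases of D-type cyclins, gave 6.23, 6.58 and 5.82 on the arrays labelled Falcor-null, against 5.34, 6.07 and 5.41 on the wild-type arrays. Its log2 difference of 0.60 (SE 0.24) had an adjusted p of 0.334, and wild-type replicate 2 lay inside the Falcor-null range. Replicate 2 was the highest array of each group for Cdkn2c, as it was for most of the mitotic genes.

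Cdkn1a, which encodes p21 and is turned on by p53, varied most among the G1 genes, and in another array. It gave 9.54, 10.65 and 10.54 on the arrays labelled Falcor-null, against 11.00, 10.77 and 10.35 on the wild-type arrays. Replicate 1 labelled Falcor-null lay more than 1 below both other arrays of its group, the only such case among the 37 genes. The group means were 10.2 ± 0.61 on the arrays labelled Falcor-null and 10.7 ± 0.32 on the wild-type arrays (SD, n = 3 each), a log2 difference of -0.46 (SE 0.30, adjusted p = 0.553). RefSeq gives Cdkn1a 2 starts, and neither window held a CHR, a CCAAT box or an E2F form. The window at the upstream start is shown because it holds letters of the p53 consensus, ACATGTC (capitals), on both strands. This motif was in the windows of 2.34% of all genes and was picked after the Cdkn1a window was read.
Cdkn1a, chr17:29090729-29091028, plus strand: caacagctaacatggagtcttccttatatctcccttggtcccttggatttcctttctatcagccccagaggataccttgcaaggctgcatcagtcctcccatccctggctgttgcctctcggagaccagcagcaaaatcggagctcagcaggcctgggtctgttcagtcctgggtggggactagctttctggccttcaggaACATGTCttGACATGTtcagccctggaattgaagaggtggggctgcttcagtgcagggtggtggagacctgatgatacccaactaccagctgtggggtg

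**Figure D4:**
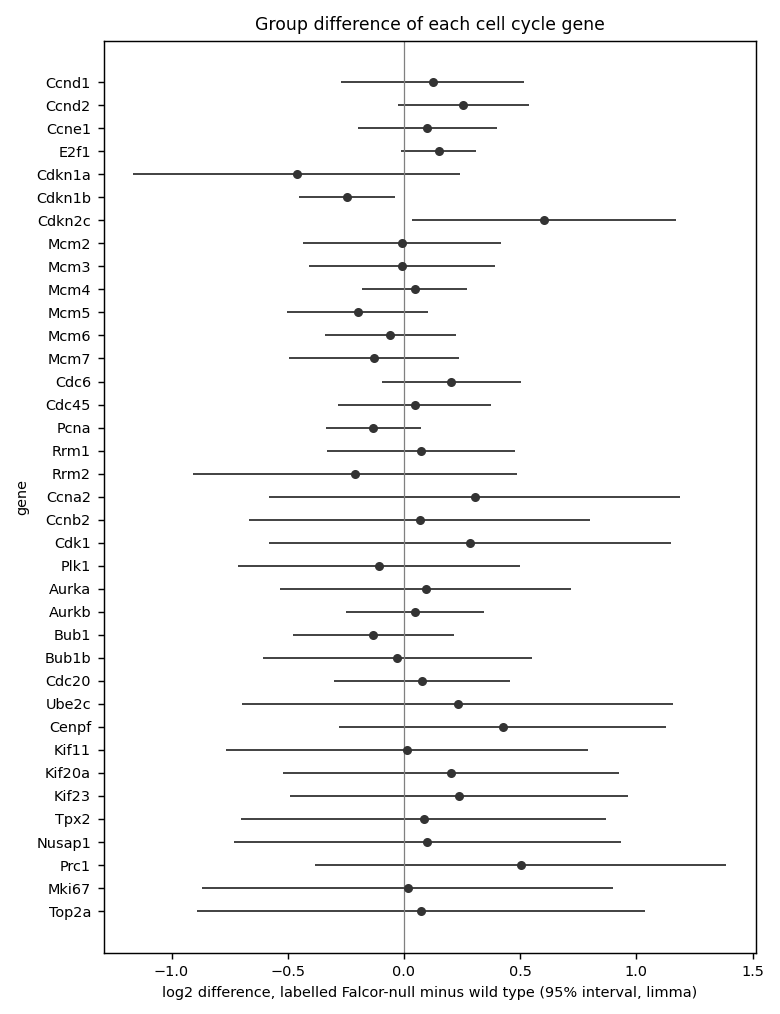
Log2 difference between the groups, labelled Falcor-null minus wild type, for each of the 37 genes, with bars for the 95% interval from limma. The intervals of Cdkn1b (-0.45 to -0.04) and Cdkn2c (0.04 to 1.17) leave 0 out before adjustment, and that of Mki67 runs from -0.87 to 0.90.

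The spread within the groups differed as the single arrays show. The median SD over the 37 genes was 0.38 among the arrays labelled Falcor-null and 0.17 among the wild-type arrays, where the median over all genes was 0.11 in each group. The SD was larger on the arrays labelled Falcor-null in 31 of 37 genes, against 48.6% of all genes. For the 19 genes of mitosis and proliferation markers the medians were 0.71 on the arrays labelled Falcor-null and 0.22 on the wild-type arrays, and for the 7 G1 genes 0.25 on the arrays labelled Falcor-null and 0.17 on the wild-type arrays. On replicates 1 and 3 labelled Falcor-null alone, the median SD of the 37 genes was 0.18, against 0.17 over all 3 wild-type arrays. These SDs rest on 2 and on 3 arrays, so they are not like for like and do not show equal spread. Replicate 2 was singled out by these same values, so the spread without it is a description only. The array numbered 2 led among the wild-type arrays as well. Wild-type replicate 2 was the highest of its group in 24 of the 37 genes (32.0% of all genes). It was so in 17 of the 19 of mitosis and proliferation markers. Replicate 2 labelled Falcor-null was the highest of its group in 34 of the 37 genes (6025 of all 16537 genes) and in all 19 of these. The largest step of replicate 2 above the next array among these 19 was 1.53 (Ube2c) on the arrays labelled Falcor-null and 0.53 (Prc1) on the wild-type arrays. These arrays measure whole lung, in which fewer cells of a type and less RNA per cell cannot be told apart.

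Few genes in the whole table shared the excess of replicate 2. Only 23 of all 16537 genes (0.139%) lay more than 1 above both other arrays labelled Falcor-null on that array, and 12 of them were listed cell cycle genes (Ube2c, Top2a, Mki67, Prc1, Cdk1, Ccna2, Kif11, Tpx2, Nusap1, Cenpf, Kif23 and Rrm2). A further 6 came from lists of other cell cycle genes, the kinesin Kif2c, the cytokinesis scaffold Anln, the spindle factors Ckap2, Nuf2 and Hmmr, and the repressor E2f8. The other 5, named after their values were seen, were Pbk, a kinase of dividing cells, the fibrinogen chain gene Fgg, the glypican gene Gpc5, Baiap2l1 and the thrombospondin gene Thbs1. Fgg gave 4.70, 7.57 and 4.81 on the arrays labelled Falcor-null, against 7.95, 8.40 and 8.70 on the wild-type arrays, so that here replicate 2 was the array nearest to wild type. On no other array did any of the 37 genes stand more than 1 above both others of its group, although 10 to 21 genes of the table did.

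Other genes of the cycle, in lists that do not overlap the 40, were read beside them. Of 36 other G2 and M genes read (of 40), 31 were highest on replicate 2 labelled Falcor-null, with a median excess of 1.59-fold, and their median log2 difference between the groups was 0.08. Of 30 other S phase genes read (of 35), 16 were highest on that array, with a median excess of 1.17-fold and a median group difference of 0.02. Of 19 other G1 regulators and CDK inhibitors, all read, 4 were highest there, with a median excess of 1.08-fold. Of 13 p53 targets read (of 15), 3 were, with a median excess of 0.97-fold.

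In these lists 1 gene passed the test between the groups, 1 of the 36 other G2 and M genes read. None passed among the 30, 19 and 13 genes read of the other lists. Over all genes 0.556% passed, so the count does not set these lists apart. Pttg1, the securin that holds back the enzyme that parts sister chromatids, gave 6.56, 6.45 and 6.26 on the arrays labelled Falcor-null, against 7.76, 8.09 and 7.55 on the wild-type arrays. In 3 of 3 arrays labelled Falcor-null it was below every wild-type array. It fell by 1.38 on the log2 scale (SE 0.15) in limma (adjusted p = 0.0169), and the wild-type mean was 2.60-fold the mean of the arrays labelled Falcor-null. Replicate 2 labelled Falcor-null, high for most of the list, lay for Pttg1 0.04 above the mean of replicates 1 and 3. The call was lost without replicate 1, 2 or 3 labelled Falcor-null (adjusted p = 0.0509, 0.0744 and 0.0541), with differences between -1.30 and -1.44, and held without any 1 wild-type array (adjusted p from 0.0207 to 0.0423).

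No S phase, G1 or p53 target gene passed. Chek1, the checkpoint kinase of stalled replication, came nearest, at 4.83, 4.93 and 4.95 on the arrays labelled Falcor-null, against 4.42, 4.54 and 4.53 on the wild-type arrays, a log2 difference of 0.40 (adjusted p = 0.0854) near the low end of the scale. Gmnn, the inhibitor of licensing, differed by -0.26 (adjusted p = 0.373). Among G1 regulators, Cdkn2a differed by 0.27 (adjusted p = 0.272) and the pocket protein gene Rbl2 by -0.16 (adjusted p = 0.373). Of the p53 targets, Sesn2, a stress-induced regulator of growth signalling, differed by -0.46 (adjusted p = 0.130) and the cell death gene Bbc3 by 0.17 (adjusted p = 0.412).

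**Figure D5:**
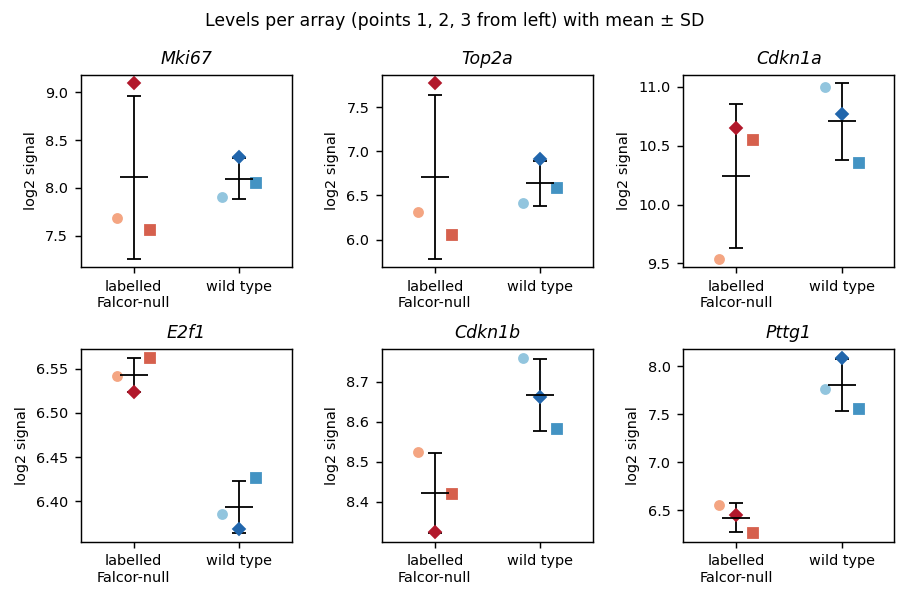
Log2 signal on each array (points, replicates 1, 2 and 3 from left) with mean and SD (bars, n = 3) for 5 of the listed genes and Pttg1. Mki67 and Top2a are set apart by replicate 2 labelled Falcor-null, Cdkn1a by replicate 1, and E2f1, Cdkn1b and Pttg1 separate the groups, with Pttg1 the only one that passed.

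Markers of other cell types that whole lung can hold were read on the same arrays. Replicate 2 labelled Falcor-null was the highest of the 6 in 0 of 13 B and plasma cell markers read (of 14), 0 of 6 germinal centre B cell markers (of 8), 0 of 12 T and NK cell markers (of 16), 0 of 13 alveolar macrophage markers (of 15), 0 of 8 neutrophil markers (of 10) and 0 of 4 erythroid precursor markers (of 8). It was the highest in 1 of 8 alveolar type 2 cell markers, 0 of 5 club cell markers and 4 of 10 ciliated cell markers. In 12 of 13 B and plasma, 9 of 12 T and NK and 6 of 8 neutrophil markers the groups did not overlap. The share over all genes was 19.5%. All markers of these 3 lists had a lower mean on the arrays labelled Falcor-null. Where the groups did not overlap, replicate 2 could therefore not be the highest of the 6. Among the 3 arrays labelled Falcor-null alone, replicate 2 was highest in 6025 of all 16537 genes. It was so in 5 of 8 neutrophil, 6 of 10 ciliated and 4 of 8 alveolar type 2 cell markers. The count was 1 each for B and plasma, germinal centre, alveolar macrophage and club cell markers. It was 2 for T and NK cell markers, 0 for erythroid precursors and 19 for the 19 mitotic genes and proliferation markers. Over the mean of replicates 1 and 3, the median excess of replicate 2 was 0.15 (log2) for ciliated and 0.25 for neutrophil markers. It was 1.21 for the 19 mitotic genes and proliferation markers.

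In some immune lists genes passed the test between the groups, where 0.460% of all genes passed as lower. The median log2 difference was -0.75 for B and plasma cell markers (5 of 13 passed, all lower), led by Jchain (-2.78) and Ighm (-2.61), and -0.48 for T and NK cell markers (3 of 12 passed, all lower), with Cd3e at -1.20 and Cd4 at -1.23. It was -0.52 for alveolar macrophage markers, -0.87 for neutrophil markers and -0.20 for germinal centre markers, where none passed. The genes of smallest p in these lists were Chil3 (-1.12) and Pparg (-0.50) for macrophages, Mmp9 (-0.85) and Mmp8 (-1.58) for neutrophils, and Bcl6 (-0.26) and Gcsam (-0.51) for germinal centres. None passed among epithelial and erythroid markers, where these genes were Etv5 (0.27) and Slc34a2 (-0.10) for alveolar type 2 cells, Cyp2f2 (0.05) and Scgb3a2 (-0.07) for club cells, Mcidas (0.36) and Cdhr3 (-0.42) for ciliated cells, and Hemgn (0.21) and Epor (-0.23) for erythroid precursors. The summed signal of the B and plasma cell markers on the linear scale ran from 1953 to 2542 on the arrays labelled Falcor-null and from 8789 to 11761 on the wild-type arrays. For T and NK cell markers it ran from 1061 to 1231 on the arrays labelled Falcor-null and from 1951 to 2125 on the wild-type arrays. Alveolar macrophage markers were uneven among the wild-type arrays, with replicate 2 highest of these in 9 of 13. Their summed signal was 7597, 9300 and 10549 on the arrays labelled Falcor-null, against 12323, 18400 and 17204 on the wild-type arrays. For the 19 mitotic genes and proliferation markers the summed signal was 1392, 2977 and 1217 on the arrays labelled Falcor-null, against 1402, 1831 and 1501 on the wild-type arrays. The part of any of these cell types in the levels of the cell cycle genes was not tested.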

How the data were processed

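Whole lung RNA of 3 samples labelled Falcor-null and 3 wild-type samples was labelled with biotin and read on single-channel arrays, per the labels' protocols. The authors deposited log2 signals of 24173 probe sets. The tools listed, with no role given, per the submitters' processing notes, are oligo, RMA and limma. RMA as usually run makes the arrays' distributions alike, so that a shift shared by most genes would be removed. Scanner files, detection calls and the build behind the annotation were not used here.

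Probe sets were named through the platform annotation. Of these, 17476 had 1 gene symbol, 1308 had several and 5389 had none, and the brightest per gene left 16537 genes. Replicate numbers come from the titles. The groups were compared per gene with lmFit and eBayes of limma 3.58.1 in R 4.3.3 as a two-sided test without covariates, with Benjamini-Hochberg adjustment over the 16537 genes at 0.05. An exact permutation of the labels of 3 and 3 arrays gives a p of 0.1 at the least. The fit was tested on simulated data.

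The 40 genes, their role groups and the other lists were chosen with earlier results of these data known, and each named gene outside the 40 was set by rule (those that passed in a pathway list, or else the 2 with the smallest p, and the 2 with the smallest p in each cell type list) unless the text says otherwise. Alternatives were a replicate block, centring, a second quantile normalization, other variance settings, array weights, filters on dim genes, averaged or additional probe sets, and leaving out each array. Python 3.11.15 and matplotlib 3.10.9 drew the figures.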

Additional observations from a re-analysis of the deposited data

How the results depend on the processing

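The count of cell cycle genes that passed was 0 of 37 under all 16 alternatives, of 26 or 10 genes where dim genes were left out. The count over all genes was 32 with the replicate block and 18 to 89 with 1 array left out, against 92. It was 24, 18 and 37 without replicate 1, 2 or 3 labelled Falcor-null. It was 26 and 49 without wild-type replicate 2 or 3, and 89 without wild-type replicate 1. With every probe set tested, 171 probe sets passed. That is a count of probe sets and not of genes, so it cannot be set against the 92 genes. The median log2 difference of the 37 genes ran from 0.03 to 0.10 under the 10 alternatives that kept all arrays, and from -0.18 to 0.24 with 1 array left out. The median SD of the genes on the arrays labelled Falcor-null was 0.38, and 0.22 when only the 10 brighter than the median gene were kept, since most mitotic genes fall below it. It was 0.18 to 0.51 with 1 of these arrays left out, an SD of 2 arrays each time and an alternative chosen after seeing the data. Of the 37 differences, 25 changed sign under some alternative and none of these had passed. With all arrays kept, these were Mcm2 (0.021 with centring, 0.025 with the second quantile normalization) and Mcm3 (0.020, 0.011, and 0.0030 with array weights). With 1 array left out the lowest and highest differences were Ccne1 -0.0030 to 0.24, Mcm2 -0.23 to 0.14, Mcm3 -0.16 to 0.17, Mcm4 -0.036 to 0.11, Mcm6 -0.18 to 0.012, Mcm7 -0.28 to 0.041, Cdc45 -0.093 to 0.15, Rrm1 -0.094 to 0.18, Rrm2 -0.60 to 0.026, Ccna2 -0.15 to 0.63, Ccnb2 -0.30 to 0.33, Cdk1 -0.17 to 0.58, Plk1 -0.43 to 0.10, Aurka -0.22 to 0.37, Aurkb -0.089 to 0.16, Bub1b -0.23 to 0.20, Cdc20 -0.10 to 0.24, Ube2c -0.29 to 0.50, Kif11 -0.41 to 0.31, Kif20a -0.16 to 0.49, Kif23 -0.17 to 0.51, Tpx2 -0.32 to 0.34, Nusap1 -0.34 to 0.44, Mki67 -0.48 to 0.29 and Top2a -0.46 to 0.40. Over all genes, arrays of the same number did not deviate together. The correlations of their deviations from the group means were 0.02, -0.003 and -0.08, so the numbers were not taken as pairs. Within the 37 genes replicate 2 was nonetheless the highest of the arrays labelled Falcor-null in 34 and of the wild-type arrays in 24. With the replicate block, Falcor lost its call (adjusted p = 0.119) and Pttg1 kept it (adjusted p = 0.0346). Pttg1 kept its call under all alternatives that kept all arrays, with adjusted p-values from 0.00829 to 0.0346. The number of arrays limits the precision, and without detection calls signal over background is unknown.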
